A study of Mus musculus with 12 samples.

Results

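The genes described here encode the subunits of the proteasome. They were chosen by name, as the rows of the count table whose symbol begins with PSMA, PSMB, PSMC or PSMD and ends in a number, with at least 10 reads in 3 or more libraries. Of the 24982 gene rows, 39 carry such a name and 37 pass the count threshold: 7 alpha and 7 constitutive beta subunits of the 20S core, 3 immunoproteasome subunits, 6 ATPase and 11 non-ATPase subunits of the 19S cap, and 3 chaperones of 19S assembly that share the Psmd names. The study sequenced messenger RNA of mouse B-ALL cells, a B-cell acute lymphoblastic leukaemia grown in culture, in 12 libraries that form 4 groups of 3. DKO cells carry Bax-/- and Bak-/-, which remove the pair of proteins that permeabilise mitochondria in apoptosis, and TKO cells carry Bax-/-, Bak-/- and Mcl-1-/-, so that the Bax and Bak deletions are common to all 4 groups and the loss of the anti-apoptotic protein MCL-1 is in TKO alone. Each line was grown in regular or in low glucose medium for 24 h. The labels describe 1 line of each genotype, so genotype and line cannot be told apart. Nothing in them states that replicates were cultured separately, and the p-values therefore measure only the spread between these libraries, which may be technical.

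The proteasome degrades proteins tagged with ubiquitin. Its 20S core is a barrel of stacked rings, in which the alpha subunits form the outer gates and the beta subunits the inner chamber; PSMB6, PSMB7 and PSMB5 carry the caspase-like, trypsin-like and chymotrypsin-like active sites. Interferon and the lymphoid lineage favour the immunoproteasome, in which PSMB9, PSMB10 and PSMB8 take the places of PSMB6, PSMB7 and PSMB5 and alter the peptides made for MHC class I. The 19S cap binds ubiquitin chains, removes them and unfolds the substrate with a ring of ATPases, PSMC1 to PSMC6, while PSMD subunits form the lid and the base's scaffold. The transcription factor NFE2L1 is known to raise proteasome genes together when proteasome activity is short.

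The members lie on 15 chromosomes, and the cluster that bears on the results is on chromosome 17 of GRCm38 (mm10). There, within the MHC class II region, Psmb9 (chr17:34182030-34187330, minus strand) and Tap1 (chr17:34187556-34197225, plus strand), a peptide transporter of the MHC class I pathway, are transcribed away from each other with 225 bases between them. Psmb8 (chr17:34198195-34201454, plus strand) starts after a gap of 969 bases beyond Tap1. Psmb10 stands apart at chr8:105935728-105938392, and the constitutive Psmb5 at chr14:54614120-54617995. RefSeq's promoter table for GRCm38.p6 held 33 entries for 31 of the 37 members, each covering 250 bases before and 50 bases after the start of transcription. The 250 bases before the start are printed for the 3 immunoproteasome genes, which separate the lines, for Psmb5, the counterpart of Psmb8, for Psmc4 and Psmd12, which had large falls in low glucose, and for Psmd5, the member that rose. Each is written 5′ to 3′ on the gene's own strand, and capitals mark matches to the 7 motifs that are spelled out after the sequences. The stretch of Psmb9 runs up to the first bases of Tap1.

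Psmb8 (chr17:34197945-34198194, plus strand): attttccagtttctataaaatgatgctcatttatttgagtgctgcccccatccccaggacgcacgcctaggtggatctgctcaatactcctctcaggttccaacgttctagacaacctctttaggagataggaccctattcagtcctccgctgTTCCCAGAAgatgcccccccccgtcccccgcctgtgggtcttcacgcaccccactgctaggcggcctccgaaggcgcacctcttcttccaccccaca
Psmb9 (chr17:34187331-34187580, minus strand): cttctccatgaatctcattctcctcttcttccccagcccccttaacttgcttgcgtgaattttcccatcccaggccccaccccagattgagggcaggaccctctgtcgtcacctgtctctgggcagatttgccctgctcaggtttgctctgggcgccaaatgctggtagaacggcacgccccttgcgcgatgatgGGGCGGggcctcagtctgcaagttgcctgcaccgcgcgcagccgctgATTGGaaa
Psmb10 (chr8:105938393-105938642, minus strand): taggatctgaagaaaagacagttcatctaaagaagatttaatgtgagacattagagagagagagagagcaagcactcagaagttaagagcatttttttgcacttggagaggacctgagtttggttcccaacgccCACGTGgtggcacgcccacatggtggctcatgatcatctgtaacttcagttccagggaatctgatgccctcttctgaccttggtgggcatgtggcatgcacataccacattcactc
Psmb5 (chr14:54617996-54618245, minus strand): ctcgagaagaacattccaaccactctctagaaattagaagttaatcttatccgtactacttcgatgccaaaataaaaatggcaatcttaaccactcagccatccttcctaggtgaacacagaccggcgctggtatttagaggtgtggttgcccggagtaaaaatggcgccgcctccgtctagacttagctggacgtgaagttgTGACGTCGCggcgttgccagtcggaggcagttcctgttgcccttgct
Psmc4 (chr7:28050093-28050342, minus strand): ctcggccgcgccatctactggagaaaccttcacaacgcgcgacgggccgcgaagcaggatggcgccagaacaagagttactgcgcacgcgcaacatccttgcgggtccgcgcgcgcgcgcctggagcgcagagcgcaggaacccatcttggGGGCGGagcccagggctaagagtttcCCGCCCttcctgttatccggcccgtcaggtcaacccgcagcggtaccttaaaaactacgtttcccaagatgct
Psmd12 (chr11:107479278-107479527, plus strand): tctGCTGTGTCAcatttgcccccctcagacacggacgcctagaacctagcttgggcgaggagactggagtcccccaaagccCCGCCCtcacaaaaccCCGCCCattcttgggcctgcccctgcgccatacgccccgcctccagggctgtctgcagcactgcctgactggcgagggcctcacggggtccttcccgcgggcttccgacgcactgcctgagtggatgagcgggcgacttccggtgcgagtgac
Psmd5 (chr2:34870963-34871212, minus strand): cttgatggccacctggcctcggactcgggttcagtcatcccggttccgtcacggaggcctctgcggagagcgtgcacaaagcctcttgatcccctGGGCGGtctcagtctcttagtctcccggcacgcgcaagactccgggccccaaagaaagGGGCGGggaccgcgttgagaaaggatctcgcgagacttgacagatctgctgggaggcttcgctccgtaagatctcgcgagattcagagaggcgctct

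Motifs were searched on both strands over each 300-base entry, with the first transcribed base as position 0. The Psmb8 promoter held a GAS motif (TTCNNNGAA, an interferon-gamma-activated site) at position -97, and a GAS motif was in 6.06% of member promoters and 8.30% of all promoters in the table. Psmb9 held a GC box (GGGCGG, bound by SP1) at position -55 and a reversed CCAAT box at position -8, and Psmb10 an E-box (CACGTG) at position -116. An antioxidant response element (ARE, TGACNNNGC, bound by NFE2L1 and NFE2L2) was in the entries of Psmb5, Psmb6, Psmc6, Psmd9 and Psmd12. That is 15.2% of member promoters, beside 12.4% of all promoters and 14.5% of those of genes tested here. The GC box was in 57.6% of member promoters, beside 35.7% of all promoters and 62.0% of those of genes tested here; Psmc4, Psmd12 and Psmd5 each had more than 1. The shares in members and in all promoters were 36.4% and 37.4% for the CCAAT box (CCAAT, bound by NF-Y) and 9.09% and 7.15% for the E-box, which was in 10.1% of the promoters of tested genes. They were 15.2% and 8.56% for the ISRE (GAAANNGAA, bound by interferon factors) and 3.03% and 3.97% for the CARE motif (TGATGNAA, bound by ATF4), with 7.33% and 2.30% in tested genes. The ISRE matches were in Psmb3, Psmb4, Psmc2, Psmd4 and Psmd9. The windows of Psmb8, Psmb9 and Psmb10 do not hold the ISRE letters, which says nothing about other positions or about the factors. The GAS and E-box letters read the same on both strands and were counted once, and ISRE and GAS matches can share letters.

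Libraries held 22190736 to 56260867 reads, and every member had at least 534 reads in every library. The gene targeted in TKO, Mcl1, was at 239 ± 2.51 and 269.6 ± 3.59 counts per 1000000 reads (CPM, mean ± SD, n = 3) in DKO and 0.406 ± 0.0619 and 0.255 ± 0.0790 in TKO, in regular medium and low glucose. Reads on Bax and Bak1, deleted in all groups, were at 17.1 ± 0.175 and 16.9 ± 1.40 CPM in DKO and 6.17 ± 0.259 and 5.30 ± 0.713 CPM in TKO in regular medium, and gene totals do not show whether such reads fall in the deleted part. Of 12 B-lineage markers, 11 were above 5 CPM in all libraries (their exception was Rag2), with a summed level of 4953 to 5503 CPM. For the members, TKO replicate 2 in regular medium and TKO replicates 2 and 3 in low glucose lay furthest from their group means, with median absolute log2 deviations of 0.082, 0.088 and 0.086 beside 0.015 to 0.056 in the other libraries. The 5993 genes whose mean level lay within the range of the members did likewise. Their deviations were 0.070, 0.076 and 0.071 in these libraries, beside 0.016 to 0.042 in the others. The extreme members were Psmb4, at -0.36 and -0.32 in the replicates numbered 2 and 0.33 in TKO replicate 3 in low glucose, and Psmb2, at 0.20, 0.23 and -0.20. Counts are given below also without both TKO replicates numbered 2.

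The immunoproteasome genes separated the lines. All 3 were lower in TKO than in DKO cells in both media, by edgeR's quasi-likelihood test with Benjamini-Hochberg adjustment over the 11988 genes tested (called at an adjusted p under 0.05). The difference was 1.89-fold for Psmb9, 1.58-fold for Psmb8 and 1.15-fold for Psmb10 in regular medium. In low glucose it was 1.72-fold, 1.40-fold and 1.37-fold. In regular medium 33.4% of all tested genes were called lower and 28.3% higher, and in low glucose 37.4% lower and 37.2% higher, so a lower call alone is common; 22.1% and 27.5% of genes were lower by at least 1.25-fold, a size that Psmb8 and Psmb9 passed in both media and Psmb10 in low glucose.

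Psmb8, which replaces the chymotrypsin-like subunit, was at 295, 273 and 288 CPM in DKO cells in regular medium, 228, 243 and 245 in DKO cells in low glucose, 179, 173 and 189 in TKO cells in regular medium and 168, 176 and 169.8 in TKO cells in low glucose. Every TKO library was below every DKO library. The log2 difference between TKO and DKO was -0.66 ± 0.05 (SE), adjusted p = 1.2e-08 in regular medium and -0.48 ± 0.05 (SE), adjusted p = 2.87e-07 in low glucose.

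Psmb9, which replaces the caspase-like subunit, was at 89.5, 82.5 and 86.8 CPM in DKO cells in regular medium, 71.4, 76.7 and 74.4 in DKO cells in low glucose, 46.4, 40.3 and 49.8 in TKO cells in regular medium and 44.2, 41.4 and 43.6 in TKO cells in low glucose. The highest TKO library had less Psmb9 than the lowest DKO library in either medium. The log2 difference was -0.92 ± 0.06 (SE), adjusted p = 1.26e-08 in regular medium and -0.78 ± 0.06 (SE), adjusted p = 5.57e-08 in low glucose, the largest of any member in each medium.

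Psmb10, which replaces the trypsin-like subunit, was at 58.9, 55.4 and 55.6 CPM in DKO cells in regular medium, 59.5, 58.7 and 56.8 in DKO cells in low glucose, 51.6, 44.8 and 50.8 in TKO cells in regular medium and 44.3, 38.6 and 43.9 in TKO cells in low glucose. The lines did not overlap in either medium, and the gap was wider in low glucose. The log2 difference was -0.21 ± 0.06 (SE), adjusted p = 0.00894 in regular medium and -0.46 ± 0.06 (SE), adjusted p = 9.41e-06 in low glucose. With no filter on low counts, which changes the scaling, the regular-medium value of Psmb10 was -0.15 with an adjusted p of 0.052. The calls of all 3 genes held when any 1 of the 12 libraries was left out, with a highest adjusted p of 2.65e-07 and 1.12e-05 for Psmb8, 2.16e-07 and 1.67e-06 for Psmb9, and 0.0403 and 0.000312 for Psmb10 in regular medium and low glucose. In these bulk libraries, fewer cells of a type and less RNA per cell cannot be told apart.

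The sums of T-cell, myeloid and erythroid or megakaryocytic markers were also lower in TKO than in DKO libraries. The stromal sum was higher in TKO libraries in regular medium (453 to 459 beside 354 to 367 CPM). In low glucose it was lower (538 to 544 beside 577 to 592 CPM). Of 10 T-cell markers, 9 were in the table, with a summed level of 103 to 128 CPM in DKO and 10.5 to 15.6 CPM in TKO libraries. Lck carried most of that sum in both lines, at 97.4 ± 3.02 CPM in DKO and 9.04 ± 0.141 in TKO in regular medium. Cd28 came next in DKO libraries only, and was at 0 in TKO in regular medium. Cd4 was at 0 in all libraries, and Cd3d, Cd3e and Cd3g reached at most 0.13 CPM. The 10 myeloid markers summed to 3.74 to 4.56 CPM in DKO and 0.47 to 1.34 CPM in TKO, with Elane, S100a8 and S100a9 at 0. The 8 erythroid or megakaryocytic markers summed to 0.90 to 1.02 CPM in DKO and 0.19 to 0.55 CPM in TKO libraries. Single B-lineage markers differed between the lines in both directions: in regular medium Pax5 was at 811 ± 2.86 CPM in DKO and 1396 ± 159 in TKO, Cd22 at 121 ± 0.644 and 279 ± 16.2, Igll1 at 743 ± 5.07 and 422 ± 26.8, and Blnk at 360.4 ± 2.12 and 225 ± 19.97. Rag2 was at 1.71 ± 0.267 CPM in DKO and 18.8 ± 2.24 in TKO. The part of these markers' cell types in the difference between the lines was not tested.

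**Figure D1:**
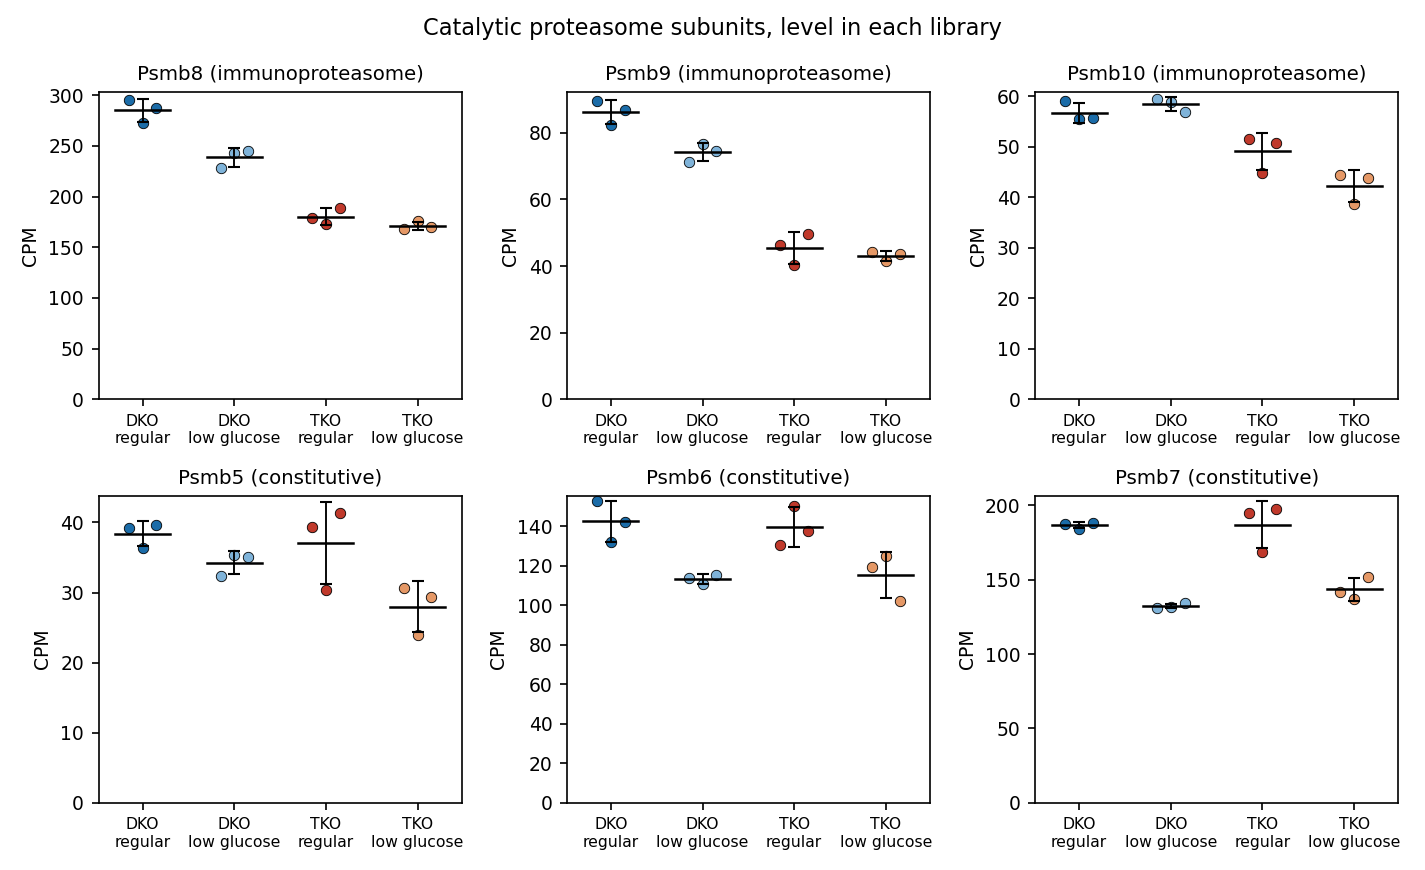
Level in CPM (y axis from 0) of the 3 immunoproteasome genes (top) and their 3 constitutive counterparts (bottom) in each library (points), by group (x axis), with the group mean (line) and SD (error bar, n = 3). Psmb8 and Psmb9 are lower in all TKO libraries than in any DKO library, while Psmb6 and Psmb7 overlap between the lines in regular medium and are lower in low glucose in both lines.

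The constitutive counterparts did not show this separation in regular medium. Psmb5, the chymotrypsin-like subunit, was at 39.3, 36.4 and 39.6 CPM in DKO cells in regular medium, 32.4, 35.4 and 35.1 in DKO cells in low glucose, 39.4, 30.4 and 41.3 in TKO cells in regular medium and 30.7, 23.9 and 29.3 in TKO cells in low glucose. The lines overlapped in regular medium, with TKO replicate 2 below the rest, and did not overlap in low glucose. The log2 difference was -0.05 ± 0.10 (SE), adjusted p = 0.703 in regular medium and -0.28 ± 0.10 (SE), adjusted p = 0.0244 in low glucose, where leaving out any DKO library in low glucose or TKO replicate 2 in low glucose ended the call (adjusted p up to 0.142).

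Psmb6, the caspase-like subunit, was at 153, 132 and 142 CPM in DKO cells in regular medium, 114, 111 and 115 in DKO cells in low glucose, 130.5, 150.5 and 138 in TKO cells in regular medium and 119, 125 and 102 in TKO cells in low glucose. The lines overlapped in each medium. The log2 difference was -0.03 ± 0.07 (adjusted p = 0.738) in regular medium and 0.02 ± 0.07 (adjusted p = 0.779) in low glucose.

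Psmb7, the trypsin-like subunit, was at 188, 184 and 188 CPM in DKO cells in regular medium, 131, 131 and 134 in DKO cells in low glucose, 195, 169 and 198 in TKO cells in regular medium and 141, 137 and 152 in TKO cells in low glucose. It was high in regular medium and lower in low glucose in both lines. The log2 difference between TKO and DKO was 0.00 ± 0.06 (adjusted p = 0.959) in regular medium and 0.12 ± 0.06 (adjusted p = 0.0705) in low glucose; the low glucose value passed the threshold in 4 of the 12 fits that left out 1 library and at 0.15 (adjusted p = 0.000635) without both TKO replicates numbered 2.

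The share of each immunoproteasome gene in the sum with its counterpart was taken from the deposited transcripts per 1000000 (TPM). These are scaled by gene length, and comparisons between genes rest on lengths that are not given in the sources used here. It is a description of each library, without a test. The Psmb8 share of Psmb8 and Psmb5 was 82.3% ± 0.282 (SD, n = 3) in DKO cells in regular medium, 81.3% ± 0.201 in DKO cells in low glucose, 75.4% ± 2.35 in TKO cells in regular medium and 79.3% ± 2.51 in TKO cells in low glucose. TKO libraries were below DKO libraries in regular medium, but TKO replicate 2 in low glucose, at 82.1%, was above the DKO range of 81.1 to 81.5%. The Psmb9 share of Psmb9 and Psmb6 was 46.6% ± 0.850 and 48.5% ± 1.30 in DKO cells and 32.0% ± 3.59 and 35.0% ± 2.84 in TKO cells, in regular medium and low glucose. The ranges did not overlap, with TKO libraries between 27.8% and 38.0% and DKO libraries between 45.7% and 49.9%. The Psmb10 share of Psmb10 and Psmb7 was 17.4% ± 0.443 and 23.5% ± 0.643 in DKO cells and 15.4% ± 0.236 and 17.0% ± 0.774 in TKO cells. DKO cells in low glucose, at 22.7 to 24.0%, stood above the other 3 groups, whose libraries lay between 15.2% and 17.9%: there Psmb7 fell and the level of Psmb10 was near that in regular medium. The level of a share depends on how it is computed. With counts per kilobase of annotated exon, the DKO regular-medium shares became 66.4% for Psmb8, 23.7% for Psmb9 and 37.9% for Psmb10, and the Psmb9 and Psmb10 levels thus moved by more than 1.5-fold.

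**Figure D2:**
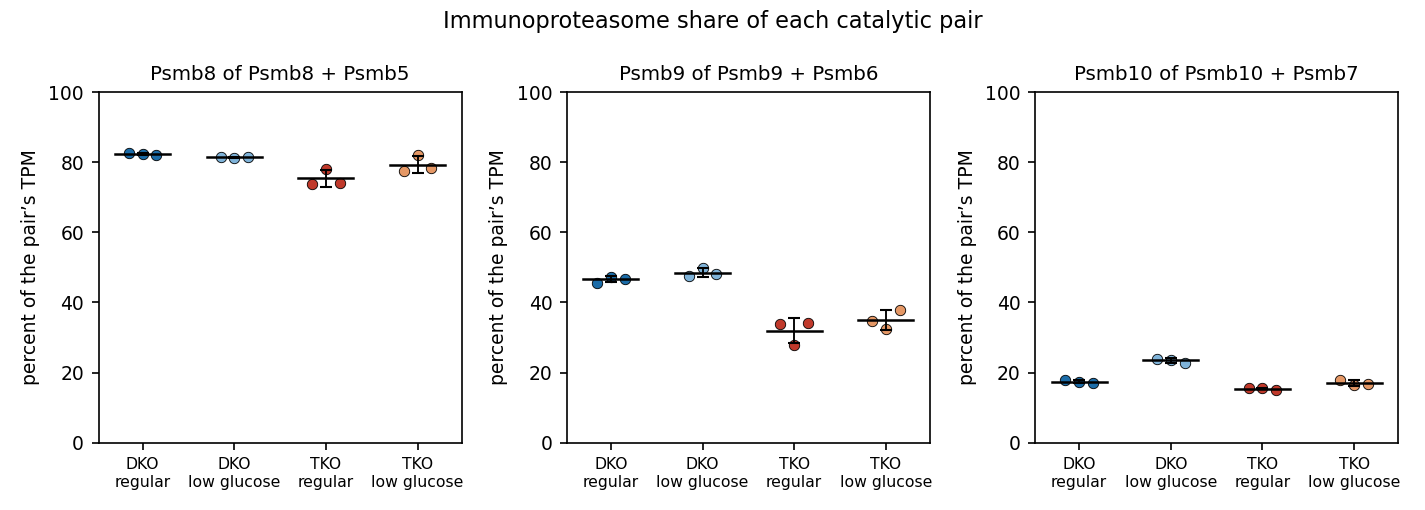
Share of the immunoproteasome gene in each catalytic pair as a percent of the pair's TPM (y axis, 0 to 100), for each library (points) by group (x axis), with the group mean (line) and SD (error bar, n = 3). The Psmb9 share is lower in all TKO libraries than in any DKO library, and the Psmb10 share is highest in DKO cells in low glucose.

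Low glucose was accompanied by lower levels of most proteasome genes in both lines. In DKO cells 30 of the 37 members fell, 1 rose and 6 were not called, with a median log2 change of -0.34; over all genes tested 31.1% fell and 31.6% rose, with a median of 0.01. In TKO cells 25 fell, none rose in the fit of all 12 libraries and 12 were not called, with a median of -0.23; over all genes 17.9% fell and 22.0% rose, with a median of 0.01. Psmd5 was the member closest to a call upward in TKO cells, at 0.16 ± 0.08 (adjusted p = 0.106). Among the 5993 genes whose mean level lay within the range of the members, 42.7% fell in DKO cells and 24.7% in TKO cells. A fall of at least 1.25-fold was found for 21 members in DKO and 8 in TKO cells, beside 19.3% and 5.03% of all genes. The call was lower in both lines for 23 members, beside 14.5% of all genes. Without both TKO replicates numbered 2, 32 members fell in TKO cells and Psmd5 rose. The added falls were those of Psma4, Psmb1, Psmb2, Psmb4, Psmb8, Psmd7 and Psmd8.

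Beside this contrast, the 8 stromal markers summed to 354 to 367 CPM in DKO cells in regular medium and 577 to 592 CPM in low glucose, and to 453 to 459 and 538 to 544 CPM in TKO cells. Vim and Pecam1, which leukaemic B cells can also express, carried these sums, Col3a1 and Dcn were at 0 in all libraries, and Col1a1, Col1a2 and Pdgfrb reached at most 0.055 CPM; the part of such cells in the falls was not tested. The T-cell sum was 103 to 108 CPM in DKO cells in regular medium and 121 to 128 CPM in low glucose, where Cd28 was at 5.50 ± 0.604 and 29.0 ± 0.510 CPM. In TKO cells the T-cell sum was 10.5 to 11.2 CPM in regular medium and 14.1 to 15.6 CPM in low glucose, and the myeloid sum 0.47 to 0.92 and 1.14 to 1.34 CPM. B-lineage sums overlapped between the media in each line.

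**Figure D3:**
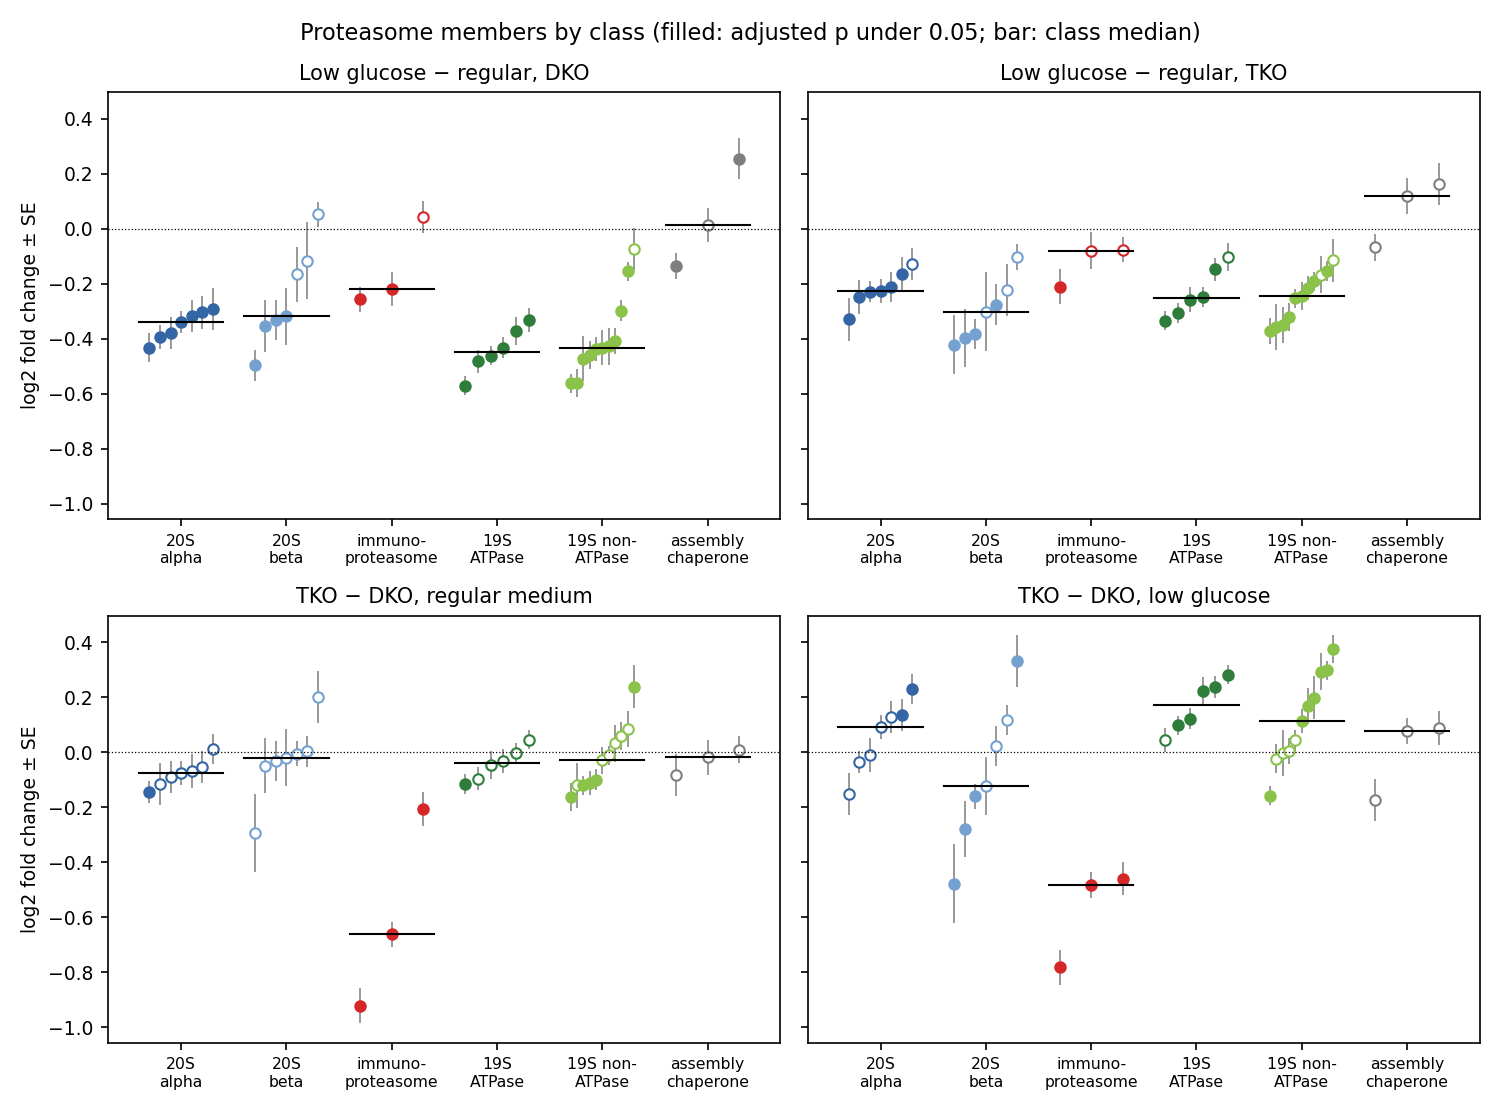
Log2 fold change ± SE (y axis, 1 point per gene) of the members by class (x axis) for low glucose against regular medium in DKO and TKO cells (top) and for TKO against DKO cells in each medium (bottom); filled points have an adjusted p under 0.05 and bars are class medians. All 6 ATPase genes fell in DKO cells in low glucose, and Psmb9 and Psmb8 are the lowest points of both comparisons of the lines.

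The alpha ring gates the core. In DKO cells all 7 alpha genes fell, with log2 changes from -0.43 (Psma6) to -0.29 (Psma5) and a median of -0.34. In TKO cells 6 of 7 fell, from -0.33 (Psma5) to -0.16 (Psma1), with a median of -0.23, and Psma4 was at -0.13 ± 0.06 (adjusted p = 0.1). The Psma1 call in TKO cells (adjusted p = 0.0423) was lost in 10 of the 12 fits that left out 1 library, with an adjusted p of up to 0.173.

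Psma6, with the largest fall of the ring in DKO cells, was at 238, 245 and 240.1 CPM in DKO cells in regular medium, 174, 177 and 186 in DKO cells in low glucose, 250.2, 229.8 and 249 in TKO cells in regular medium and 208, 194 and 227 in TKO cells in low glucose. The media did not overlap in either line, and the step was larger in DKO cells. The log2 change was -0.43 ± 0.05 (SE), adjusted p = 8.05e-06 in DKO and -0.21 ± 0.05 (SE), adjusted p = 0.00685 in TKO cells.

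Psma5, with the largest fall of the ring in TKO cells, was at 134, 143 and 141 CPM in DKO cells in regular medium, 109, 115 and 117 in DKO cells in low glucose, 132, 118 and 136 in TKO cells in regular medium and 94.4, 94.6 and 117 in TKO cells in low glucose. TKO replicate 3 in low glucose lay just below the lowest TKO library in regular medium. The change was -0.29 ± 0.08 (SE), adjusted p = 0.00393 in DKO and -0.33 ± 0.08 (SE), adjusted p = 0.00389 in TKO cells.

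The constitutive beta ring was less uniform in the fit of all 12 libraries. In each line 4 of 7 beta genes fell: Psmb3, Psmb6 and Psmb7 in both, with Psmb2 in DKO and Psmb5 in TKO cells. Without both TKO replicates numbered 2, Psmb1, Psmb2 and Psmb4 were also called lower in TKO cells, and Psmb5 in DKO cells. Class medians were -0.32 in DKO and -0.30 in TKO cells. Of the genes with an active site, Psmb7 changed by -0.50 ± 0.06 (SE), adjusted p = 2.69e-06 in DKO and -0.38 ± 0.06 (SE), adjusted p = 0.000131 in TKO cells, the largest fall of the class in DKO. Psmb6 changed by -0.33 ± 0.07 (adjusted p = 0.0012) and -0.28 ± 0.07 (adjusted p = 0.00867), and Psmb5 by -0.17 ± 0.10 (adjusted p = 0.164) and -0.40 ± 0.10 (adjusted p = 0.00823).

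Psmb3, a structural beta subunit with the largest fall of the class in TKO cells, was at 129, 124 and 125 CPM in DKO cells in regular medium, 96.2, 103 and 104 in DKO cells in low glucose, 136, 102 and 134 in TKO cells in regular medium and 91.9, 79.0 and 107 in TKO cells in low glucose. The DKO groups did not overlap, whereas the TKO groups did through replicate 2 in regular medium and replicate 3 in low glucose. Its change was -0.32 ± 0.10 (SE), adjusted p = 0.0159 in DKO and -0.42 ± 0.11 (SE), adjusted p = 0.00601 in TKO cells; without DKO replicate 1 in low glucose the DKO value was -0.28 with an adjusted p of 0.063.

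Psmb1, another structural beta subunit, was at 188, 189 and 195 CPM in DKO cells in regular medium, 192, 201 and 199.6 in DKO cells in low glucose, 191, 179 and 199 in TKO cells in regular medium and 172, 173 and 185 in TKO cells in low glucose. It gave 0.05 ± 0.05 (adjusted p = 0.326) in DKO cells, the highest value of the class, and -0.10 ± 0.05 (adjusted p = 0.0902) in TKO cells. Neither change passed the test in the fit of all 12 libraries. Psmb4 was also not called in either line in that fit, at -0.12 ± 0.14 (adjusted p = 0.495) and -0.30 ± 0.14 (adjusted p = 0.112), and its TKO libraries spread from 90.9 to 163 CPM. Both genes were called lower in TKO cells without both TKO replicates numbered 2.

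Of the immunoproteasome genes, Psmb8 and Psmb9 fell in DKO cells, with log2 changes of -0.26 ± 0.05 (adjusted p = 0.000215) and -0.22 ± 0.06 (adjusted p = 0.00686), and Psmb10 was at 0.04 ± 0.06 (adjusted p = 0.555). In TKO cells Psmb10 fell, at -0.21 ± 0.06 (adjusted p = 0.016), while Psmb8 and Psmb9 were at -0.08 ± 0.05 (adjusted p = 0.215) and -0.08 ± 0.07 (adjusted p = 0.371). The Psmb10 call in TKO cells was lost without DKO replicate 2 in low glucose, without TKO replicate 1 or without TKO replicate 3 in regular medium, with adjusted p-values of 0.051 to 0.074. Psmb9 passed the threshold in TKO cells when TKO replicate 2 of the regular medium was left out. Whether these responses differ between the lines was tested directly below.

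The ATPase ring of the cap, which unfolds substrates, fell as a whole in DKO cells. In DKO cells all 6 ATPase genes fell, each by at least 1.25-fold, with a median log2 change of -0.45. In TKO cells 5 of 6 fell, with a median of -0.25, and Psmc6 was at -0.10 ± 0.05 (adjusted p = 0.139).

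Psmc4 was at 163, 156 and 162 CPM in DKO cells in regular medium, 107, 109 and 108 in DKO cells in low glucose, 168, 163 and 165 in TKO cells in regular medium and 131, 134 and 129 in TKO cells in low glucose. The DKO libraries in low glucose were the lowest, the TKO libraries in low glucose came next, and the regular-medium libraries were highest, with no overlap between the media. The change was -0.57 ± 0.03 (SE), adjusted p = 6.14e-09 in DKO cells, the largest fall of any member, and -0.33 ± 0.04 (SE), adjusted p = 7.43e-06 in TKO cells.

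Psmc1, the ATPase gene with the highest TPM, was at 281, 275 and 284 CPM in DKO cells in regular medium, 202, 195 and 203 in DKO cells in low glucose, 259.8, 268 and 258 in TKO cells in regular medium and 223, 243 and 244 in TKO cells in low glucose. Its change was -0.48 ± 0.04 (SE), adjusted p = 1.75e-07 in DKO and -0.15 ± 0.04 (SE), adjusted p = 0.0114 in TKO cells, where the call was lost without TKO replicate 1 in low glucose (adjusted p = 0.0533). The smallest DKO fall of the ring was that of Psmc2, at -0.33 ± 0.04 (adjusted p = 1.19e-05), and Psmc3 and Psmc5 changed by -0.46 and -0.43 in DKO and -0.25 and -0.31 in TKO cells.

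Among the 11 non-ATPase subunits 10 fell in DKO cells (median -0.43) and 9 in TKO cells (median -0.24). Psmd1 and Psmd2, the scaffolds of the base, were among them. Psmd1 was at 362, 358 and 358 CPM in DKO cells in regular medium, 244, 239 and 246 in DKO cells in low glucose, 351, 369 and 349 in TKO cells in regular medium and 294, 306 and 297 in TKO cells in low glucose, and its change was -0.56 ± 0.04 (SE), adjusted p = 8.66e-09 in DKO and -0.25 ± 0.04 (SE), adjusted p = 9.28e-05 in TKO cells. Psmd2 changed by -0.46 and -0.32.

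Psmd12, a lid subunit, was at 149.8, 154 and 152 CPM in DKO cells in regular medium, 100.3, 104 and 104 in DKO cells in low glucose, 154, 167 and 154 in TKO cells in regular medium and 125, 143 and 134 in TKO cells in low glucose. It changed by -0.56 ± 0.05 (SE), adjusted p = 2.51e-07 in DKO and -0.24 ± 0.05 (SE), adjusted p = 0.00154 in TKO cells. Psmd14, the deubiquitinase of the lid, changed by -0.44 ± 0.04 (adjusted p = 8.39e-07) and -0.22 ± 0.04 (adjusted p = 0.00157). Psmd3, another lid subunit, had the largest fall of the class in TKO cells, at -0.37 ± 0.05 (adjusted p = 4.49e-05), and changed by -0.41 in DKO cells. Psmd4, the ubiquitin receptor of the base, fell less in DKO cells, at -0.15 ± 0.03 (adjusted p = 0.0014), and was at -0.19 ± 0.04 (adjusted p = 0.000748) in TKO cells.

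Psmd8, a lid subunit, was the non-ATPase gene not called in either line in the fit of all 12 libraries. It was at 188, 183 and 186 CPM in DKO cells in regular medium, 175, 175 and 179 in DKO cells in low glucose, 205, 243 and 209.9 in TKO cells in regular medium and 201, 229.9 and 178 in TKO cells in low glucose, and its change was -0.07 ± 0.08 (adjusted p = 0.428) in DKO and -0.11 ± 0.08 (adjusted p = 0.268) in TKO cells. The DKO groups lay close together without overlap, and TKO replicate 2 stood above the other TKO libraries in each medium.

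Of the 3 chaperones that build the cap and leave it, 1 rose and 1 fell in DKO cells and none passed the test in TKO cells; the values of all 3 follow. Psmd5 was at 73.4, 76.9 and 73.2 CPM in DKO cells in regular medium, 86.3, 89.7 and 90.9 in DKO cells in low glucose, 74.8, 61.5 and 74.7 in TKO cells in regular medium and 77.4, 71.5 and 87.2 in TKO cells in low glucose. All DKO libraries in low glucose were above all those in regular medium. The change was 0.26 ± 0.07 (SE), adjusted p = 0.00831 in DKO cells, the single rise among the 37 members, and 0.16 ± 0.08 (SE), adjusted p = 0.106 in TKO cells, where replicate 2 was lowest in each medium. Psmd10 was at 0.01 ± 0.06 (adjusted p = 0.865) in DKO and 0.12 ± 0.06 (adjusted p = 0.158) in TKO cells. Psmd9 fell in DKO cells, at -0.14 ± 0.05 (adjusted p = 0.0217), a call that 4 of the 12 fits without 1 library and DESeq2 (adjusted p = 0.0912) did not make, and was at -0.07 ± 0.05 (adjusted p = 0.303) in TKO cells.

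**Figure D4:**
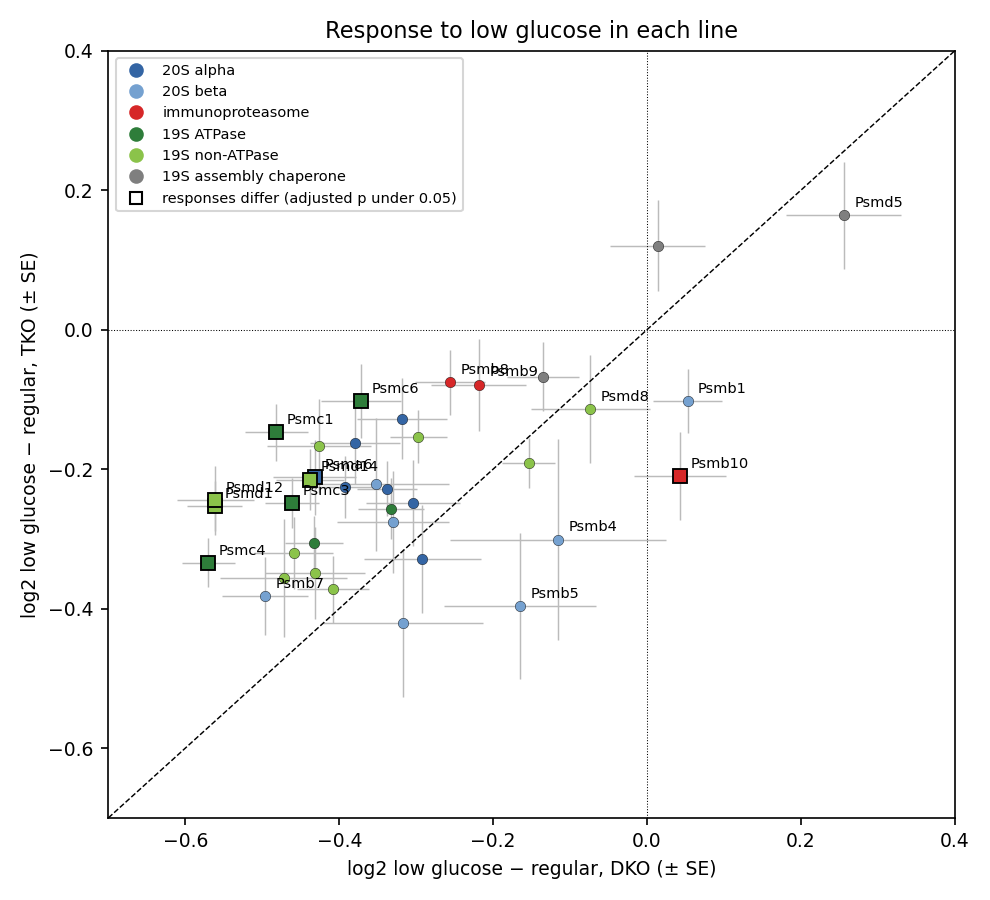
Log2 change in low glucose in TKO cells (y axis) against that in DKO cells (x axis), each ± SE, for the 37 members (points coloured by class); squares mark members whose responses differ between the lines at an adjusted p under 0.05, and the dashed line is equality. Psmc4, Psmd1 and Psmd12 lie farthest left and above the line, and Psmd5 is the member at the upper right.

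The difference between the lines' responses was tested as an interaction, the TKO change minus the DKO change. It was positive for 8 members and negative for 1, with 28 not called and a median of 0.12; over all genes tested 17.6% were positive and 12.1% negative, with a median of 0.03. Among the 5993 genes in the members' range of level, 24.8% were positive and 13.0% negative, so the share of members positive is near the background. The positive members had the smaller fall in TKO cells. Of the 6 ATPase genes 4 were among them: Psmc1 at 0.33 ± 0.06 (SE), adjusted p = 0.000726, Psmc6 at 0.27 ± 0.07 (adjusted p = 0.0139), Psmc4 at 0.24 ± 0.05 (adjusted p = 0.0026) and Psmc3 at 0.21 ± 0.05 (adjusted p = 0.00581). Of the 11 non-ATPase genes 3 were: Psmd12 at 0.32 ± 0.07 (adjusted p = 0.00395), Psmd1 at 0.31 ± 0.05 (adjusted p = 0.000434) and Psmd14 at 0.22 ± 0.06 (adjusted p = 0.015). Psma6, at 0.22 ± 0.08 (adjusted p = 0.0443), was the alpha gene, and its call was lost in 10 of the 12 fits that left out 1 library (adjusted p up to 0.097) and with DESeq2-type size factors in edgeR.

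Psmb10 was the negative member, at -0.25 ± 0.09 (adjusted p = 0.041): its level in low glucose was below that in regular medium in TKO cells and near it in DKO cells. That call was lost in 8 of the 12 fits that left out 1 library, with an adjusted p of up to 0.145. For Psmb8 the interaction was 0.18 ± 0.06 (adjusted p = 0.0505) and for Psmb9 0.14 ± 0.09 (adjusted p = 0.278), so the lines' responses of these genes were not shown to differ. None of the 7 constitutive beta genes was called in the fit of all 12 libraries, and their values ran from -0.23 (Psmb5) to 0.13 (Psmb2). Without both TKO replicates numbered 2, 14 members were positive and 3 negative, and all 9 calls were kept. The added negative members were the constitutive beta genes Psmb1 and Psmb5. With no filter on low counts 3 members were positive, Psma6, Psmc3, Psmc4, Psmc6 and Psmd14 no longer being called.

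Between the lines in regular medium, outside the immunoproteasome, 7 of 34 members were called. That is 2.94% higher and 17.6% lower, beside 28.3% and 33.4% of all genes, so these members were called less often than all genes. Over all 37 members, 9 were lower and 1 higher in TKO cells, with a median log2 difference of -0.05 (all genes -0.01). That median was 0.00 with DESeq2-type size factors and 0.01 with no filter on low counts, so its sign depends on the scaling. The counts moved too, to 4 lower and 3 higher with those size factors, 5 and 3 with DESeq2, and 2 and 2 with no filter. Over all genes 3396 were higher and 3999 lower, and with DESeq2-type size factors 3935 were higher and 3524 lower. The 6 lower calls outside the immunoproteasome were small: Psmd2 at -0.16 ± 0.05 (adjusted p = 0.0138), Psma2 at -0.14 ± 0.04 (adjusted p = 0.00564), Psmd4 at -0.12 ± 0.03 (adjusted p = 0.00812), Psmc3 at -0.11 ± 0.04 (adjusted p = 0.0118), Psmd14 at -0.11 ± 0.04 (adjusted p = 0.0414) and Psmd11 at -0.10 ± 0.04 (adjusted p = 0.033). Leaving out single libraries ended the calls of Psmd2 (DKO replicate 3 or TKO replicate 2, both in regular medium, adjusted p up to 0.0528) and Psmc3 (DKO replicate 1 in regular medium, 0.0535), and those of Psmd14 in 8 of the 12 fits and Psmd11 in 6 (up to 0.123 and 0.116). Psmd8 was the higher member, at 0.24 ± 0.08 (adjusted p = 0.0155), and at 0.16 with an adjusted p of 0.0737 when TKO replicate 2 of the regular medium was left out. Psmb4 was at -0.29 ± 0.14 (adjusted p = 0.0893) and Psmb2 at 0.20 ± 0.09 (adjusted p = 0.0793), neither called, with TKO replicate 2 the extreme library for both.

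Between the lines in low glucose, 14 of the 37 genes were higher and 7 lower in TKO cells, with a median of 0.08 (all genes 0.00). Over all genes tested 37.2% were higher and 37.4% lower, so the share of members higher is near the background and the share lower is below it. Of the 17 subunits of the 19S cap 11 were higher and 1 lower; of the 14 constitutive 20S genes 3 were higher and 3 lower, a smaller share each way than over all genes. Cap genes with the largest differences were Psmd12 at 0.38 ± 0.05 (SE), adjusted p = 9.32e-06, Psmd1 at 0.30 ± 0.04 (adjusted p = 3.09e-06), Psmd7 at 0.29 ± 0.07 (adjusted p = 0.00129) and Psmc4 at 0.28 ± 0.04 (adjusted p = 4.69e-06). As the values per library above show, the TKO libraries of Psmd12, Psmd1 and Psmc4 lay above all DKO libraries in low glucose. Psmd4 was the lower cap gene, at -0.16 ± 0.03 (adjusted p = 0.000947). In the core, Psmb2 (0.33), Psma6 (0.23) and Psma4 (0.14) were higher and Psmb4 (-0.48), Psmb5 (-0.28) and Psmb1 (-0.16) lower.

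Besides Psmb5 (above), single libraries ended the call of Psma4 in 7 of the 12 fits, among them 5 that left out a regular-medium library (adjusted p up to 0.245). Leaving out single low glucose libraries also ended the calls of Psmb1 (DKO replicate 2, 0.135), Psmc3 (DKO replicate 3 or TKO replicate 2, 0.0712), Psmd8 (DKO replicate 3, TKO replicate 1 or 2, 0.164), Psmd13 (TKO replicate 1 or 3, 0.147) and Psmd14 (TKO replicate 3, 0.154). Without both TKO replicates numbered 2, 15 members were higher and 8 lower, and 20 of the 21 calls were shared, Psma4 being lost.

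Comparing the media, 4 members were lower in TKO cells in both (Psmb8, Psmb9, Psmb10 and Psmd4) and Psmd8 was higher in both, beside 27.9% and 24.0% of all genes. Psmc3 and Psmd14 were lower in regular medium and higher in low glucose. For 13 members neither comparison of the lines was called. Leaving out each library in turn, 5 of the 10 calls between the lines in regular medium, 14 of 21 in low glucose, 29 of 31 for low glucose in DKO cells, 22 of 25 in TKO cells and 7 of 9 for the interaction were made every time.

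The deposited TPM were summed over the members of each class as a description without a test. The 37 members together were at 10208 ± 85.5 TPM (SD, n = 3) in DKO cells in regular medium, 8318 ± 5.99 in DKO cells in low glucose, 10006 ± 119 in TKO cells in regular medium and 8761 ± 188 in TKO cells in low glucose. The ATPase sum was 1688 ± 21.8, 1264 ± 20.7, 1703 ± 29.7 and 1493 ± 18.9 TPM in the same order. The low glucose libraries of both lines lay below all regular-medium libraries, and those of DKO cells lay below those of TKO cells. The immunoproteasome sum was 898 ± 29.3 and 794 ± 12.03 TPM in DKO cells and 584 ± 30.9 and 560.3 ± 10.1 TPM in TKO cells, with every TKO library below every DKO library. The chaperone sum was 131 ± 1.51 and 146 ± 1.83 TPM in DKO cells, higher in low glucose in each library.

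**Figure D5:**
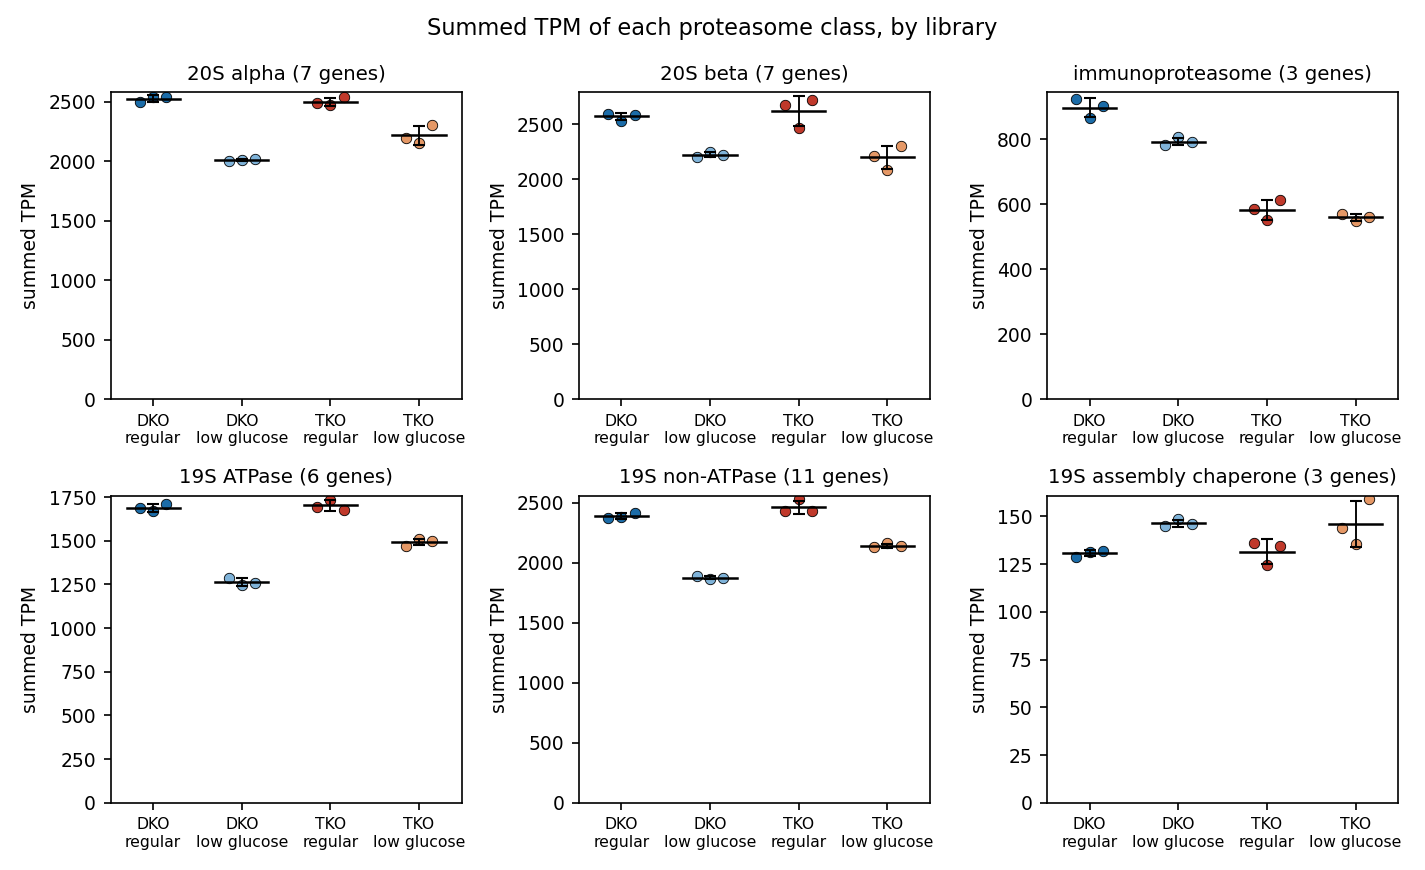
Summed TPM of each class (y axis from 0) in each library (points) by group (x axis), with the group mean (line) and SD (error bar, n = 3). The 19S and alpha sums are lower in low glucose in both lines and lowest in DKO cells, the immunoproteasome sum is lower in TKO cells, and the assembly chaperone sum is not lower in low glucose.

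The alpha subunits are built into the core in equal numbers, and the TPM of their messages differed. In DKO cells in regular medium the alpha genes ranged from 144 TPM (Psma3) to 565 TPM (Psma2), a ratio of 3.93. The beta genes ranged from 112 TPM (Psmb5) to 480 TPM (Psmb3), and the ATPase genes from 182 TPM (Psmc2) to 395 TPM (Psmc1). The ATPase ratio of highest to lowest was 2.17 there and 1.96, 2.08 and 2.24 in DKO low glucose, TKO regular and TKO low glucose. In these TPM the same gene was lowest in all 4 groups for the alpha (Psma3), beta (Psmb5) and ATPase (Psmc2) classes. By TPM, immunoproteasome genes had the order Psmb8, Psmb9, Psmb10 in every group, at 518, 282 and 98.0 TPM in DKO and 341, 155 and 88.3 TPM in TKO cells in regular medium. These orders and ratios between genes rest on the lengths behind the deposited TPM, which are not given in the sources used here. With counts per kilobase of annotated exon the Psmb9 share of its pair was lower and the Psmb10 share higher (above). The order of genes can thus change with the length used. Psmd9 was the lowest member, at 19.2 TPM in DKO cells in regular medium.

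Genes that act with the proteasome were taken from lists set by function. Of 5 genes for alternative caps and inhibition (Psme1 to Psme4 and Psmf1), 2 fell in low glucose in each line, beside 31.1% of all genes in DKO and 17.9% in TKO cells; the same shares stand beside the other lists' falls. Psme3, which encodes the nuclear cap PA28-gamma, changed by -0.58 ± 0.05 (SE), adjusted p = 4.08e-07 in DKO and -0.26 ± 0.05 (SE), adjusted p = 0.00171 in TKO cells, and the interaction was 0.32 ± 0.08 (adjusted p = 0.006). Psme2, a subunit of the interferon-inducible cap PA28, was lower in TKO than in DKO cells, at -0.24 and -0.22 in regular medium and low glucose, with the call in low glucose lost without DKO replicate 1 or 2 in low glucose (adjusted p up to 0.0934). Psme4, another cap, was also lower in TKO cells (-0.35 and -0.37). Of 5 tested factors that assemble the core, 4 fell in DKO and 5 in TKO cells in low glucose; Pomp, which matures the core, changed by -0.26 ± 0.05 (adjusted p = 0.000337) and -0.14 ± 0.05 (adjusted p = 0.0367), and was lower in TKO cells in both media (-0.26 and -0.14). Single libraries ended the TKO fall of Pomp in 8 of the 12 fits and its difference between the lines in low glucose in 4 (adjusted p up to 0.142 and 0.134). Of 6 other proteins bound to the cap, 4 fell in each line. Uchl5, a deubiquitinase of the cap, changed by -0.87 ± 0.07 (adjusted p = 8.77e-08) in DKO and -0.19 ± 0.07 (adjusted p = 0.0446) in TKO cells, with an interaction of 0.68 ± 0.10 (adjusted p = 0.000162); the TKO call was lost with DESeq2 (adjusted p = 0.0589) and in 9 of the 12 fits without 1 library. Usp14, the other such deubiquitinase, and the core assembly factor Psmg2 were higher in TKO cells in both media, at 0.54 and 0.91 for Usp14 and 0.73 and 0.86 for Psmg2.

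Of 7 genes of the NFE2L1 axis, which releases and activates that factor, 4 rose in DKO and 3 in TKO cells, beside 31.6% and 22.0% of all genes, and none fell in either; the lowest value was that of Ddi2, the protease that cleaves NFE2L1, at -0.20 ± 0.11 (adjusted p = 0.111) in DKO and -0.19 ± 0.11 (adjusted p = 0.192) in TKO cells. Nfe2l1 was at 116, 108 and 111 CPM in DKO cells in regular medium, 166, 166 and 163 in DKO cells in low glucose, 89.5, 97.8 and 89.1 in TKO cells in regular medium and 111, 114 and 103 in TKO cells in low glucose. It was highest in DKO cells in low glucose, where the ATPase genes were lowest, and its change was 0.57 ± 0.05 (SE), adjusted p = 1.56e-07 in DKO and 0.24 ± 0.05 (SE), adjusted p = 0.00137 in TKO cells, with an interaction of -0.32 ± 0.07 (adjusted p = 0.0029). Nfe2l2 changed by 0.56 and 0.38. These are levels of message, and the activity of either factor was not measured.

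All 5 ubiquitin shuttles, which carry tagged proteins to the cap, fell in DKO cells in low glucose and 2 in TKO cells, beside 31.1% and 17.9% of all genes; Ubqln4 changed by -0.47 and -0.24.

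The neighbours and regulators of the immunoproteasome genes were set beside them. All 9 genes of MHC class I loading and its interferon factors were lower in TKO cells in both media, beside 27.9% of all genes. Nlrc5, the activator of MHC class I genes, was at 242, 252 and 243 CPM in DKO cells in regular medium, 339.7, 337 and 326 in DKO cells in low glucose, 94.1, 94.1 and 95.2 in TKO cells in regular medium and 123, 109.7 and 113 in TKO cells in low glucose. Each TKO library was below each DKO library, and the log2 difference was -1.38 ± 0.04 (SE), adjusted p = 1.81e-12 in regular medium and -1.53 ± 0.04 (SE), adjusted p = 4.55e-13 in low glucose. Tap1, which lies between Psmb9 and Psmb8, differed by -0.97 ± 0.04 (adjusted p = 1.08e-10) and -0.94 ± 0.04 (adjusted p = 1.1e-10), and Tap2, the partner of TAP1 in the transporter, by -0.97 and -1.23.

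In low glucose 6 of these 9 genes rose in each line, beside 31.6% of all genes in DKO and 22.0% in TKO cells, and none fell; the lowest was Erap1, a peptide-trimming enzyme, at -0.09 ± 0.05 (adjusted p = 0.109) in DKO and -0.06 ± 0.05 (adjusted p = 0.353) in TKO cells. Tap1 rose by 0.22 ± 0.04 (adjusted p = 0.000626) and 0.25 ± 0.05 (adjusted p = 0.000686), whereas its neighbours Psmb8 and Psmb9 fell in DKO cells (values above) and were not called in TKO cells. The direction of Psmb8 and Psmb9 in low glucose in DKO cells was thus that of most proteasome genes and opposite to that of Tap1; the difference between the genes was not tested.

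In the authors' deposited table of TKO against DKO, 2 members were higher and 8 lower in regular medium, and 13 higher and 7 lower in low glucose. The authors' deposited table gave log2 values of -0.64, -0.90 and -0.18 for Psmb8, Psmb9 and Psmb10 in regular medium and -0.47, -0.77 and -0.45 in low glucose. Over the members, values in the authors' deposited table were higher than those of edgeR by a median of 0.024 in regular medium and 0.009 in low glucose on the log2 scale.

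Of the rows with a matching name, 2 did not reach the threshold. Psma8, the testis form of an alpha subunit, had 0 reads in all 12 libraries, and Psmb11, the thymus form of the chymotrypsin-like subunit that lies next to Psmb5 on chromosome 14, had 2 reads in all. The lowest count of a member that passed was 534 reads, for Psmb5 in TKO replicate 2 in low glucose. RefSeq lists 6 pseudogenes named after members (of Psma5, Psmb5, Psmb6 and Psmb7), and how reads shared with such copies were counted is not given in the sources used here, so the levels of these 4 genes are less certain.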

How the data were processed

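Messenger RNA was sequenced from 12 libraries in 4 groups of 3, grouped by their titles. STAR 2.7.3a, the mouse build mm10 and DESeq2 1.22.1 are named in the submitters' processing notes. The annotation, read counter, strand setting and treatment of multiply matching reads are not given in the sources used here. The authors deposited a table of raw counts of reads per gene, a table of transcripts per 1000000 (TPM) and, for TKO against DKO in each medium, log2 fold changes, p-values and scores (mean level and test statistic).

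Genes were kept by filterByExpr (11988), scaled by TMM and fitted in R 4.3.3 with edgeR 4.0.16, with 1 mean per group and 8 residual degrees of freedom. The quasi-likelihood test was adjusted by Benjamini-Hochberg over all genes tested and called at 0.05. Counts per 1000000 reads (CPM) are used within a gene and TPM between genes. Alternatives were DESeq2-type size factors (RLE), DESeq2 1.42.0, no filter on low counts, the rule's own count filter, a replicate block, only the groups compared, and leaving out each library. Libraries held 22190736 to 56260867 reads. Genes were named by a rule: the 3 immunoproteasome genes and their counterparts, and in each class the largest rise and fall in each comparison; Psma1, Psma4, Psmb1, Psmb4, Psmc3, Psmc5, Psmd2, Psmd4, Psmd7, Psmd11, Psmd13 and Psmd14 are also named, for their calls, some chosen after their values were seen. The members, the lists of related genes and the markers were chosen with earlier results of these data known. Results for 2 genes of the related lists are not reported here.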

Additional observations from a re-analysis of the deposited data

Results flagged for a closer look

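For 9 members the response to low glucose differed between the lines by edgeR's interaction test, given as the TKO log2 change minus the DKO log2 change. The value was 0.33 for Psmc1, 0.32 for Psmd12, 0.31 for Psmd1, 0.27 for Psmc6, 0.24 for Psmc4, 0.22 for Psmd14, 0.22 for Psma6 and 0.21 for Psmc3, each with the smaller fall in TKO cells. It was -0.25 for Psmb10. Over all genes 17.6% were positive and 12.1% negative by the same test, and 24.8% and 13.0% of the genes in the members' range of level, so the share of members positive is near the background.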

How the results depend on the processing

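None of the 37 members had a call whose direction reversed in any fit run. Between the lines in regular medium, 1 member was higher and 9 lower; these counts were 3 and 4 with DESeq2-type size factors, 3 and 5 with DESeq2, 2 and 2 with no filter on low counts, and 0 to 2 and 6 to 11 when 1 library was left out. Using only the groups compared gave 2 higher. With the replicate number as a block, 2 were higher and 10 lower; the block moved no other count of members by over 1.5 times. Deviations of samples with the same number correlated at 0.0652, 0.328 and 0.229 between the TKO groups and at -0.083 to 0.0479 between the others. Between the TKO groups, samples with different numbers correlated at -0.317 to 0.144. The numbers were not taken to pair the samples, although the TKO values of replicates 2 and 3 are a hint of pairing within TKO. The block gave each number 1 effect shared by both lines, and a pairing in TKO alone was not tested.

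In low glucose the counts between the lines were 11 to 18 higher and 5 to 10 lower without 1 library. The falls numbered 28 to 30 in DKO and 23 to 29 in TKO cells, and rises in TKO cells 0 to 1. For the interaction, 3 were positive with no filter (7 to 11 without 1 library), and 2 were negative with DESeq2-type size factors, with DESeq2 and with no filter (0 to 3 without 1 library). An alternative added after seeing the data left out both TKO replicates numbered 2: it gave 2 members higher in TKO in regular medium, 1 rise in TKO cells in low glucose, and 14 positive and 3 negative interactions.

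With counts per kilobase of exon in place of TPM, pair shares in DKO regular, DKO low glucose, TKO regular and TKO low glucose were 66.4%, 65.0%, 56.6% and 62.0% for Psmb8, 23.7%, 25.1%, 14.3% and 16.1% for Psmb9, and 37.9%, 47.0%, 34.5% and 37.2% for Psmb10. The lengths behind the deposited TPM are not given in the sources used here, and the cause of this and the other shifts was not tested. Depth limits the members little, since the lowest count of any in any library was 534 reads.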
